A study of Mus musculus with 6 samples.

Results

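The genes described here build and maintain the Golgi apparatus: golgins and GRASP proteins, the ARF and ARL small GTPases with their exchange factors, the conserved oligomeric Golgi (COG) complex and the COPI coat. They were taken by name from a table of 55711 gene entries. Each of the 41 named genes was found once, and none was lost to the filter on low values, a mean over the 6 libraries of 0.5 FPKM or more. FPKM is the number of fragments per kilobase of a gene model, divided by a library size that the authors set. The samples were 6 mouse testis libraries on the C57BL6 background. In 3 control libraries the labels give the genotype as heterozygote, and in 3 as Tmc7 knockout, so the controls are labelled as carrying the altered allele as well. The labels give no age and no description of the allele, and they do not say if libraries came from different animals. The p-values therefore reflect the spread among these samples alone, which may be technical.

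The Golgi is a stack of flattened cisternae that receives cargo from the endoplasmic reticulum at its cis side and sorts it at the trans-Golgi network. ARF GTPases, switched on by exchange factors, recruit the COPI coat, which buds vesicles that carry Golgi enzymes and escaped residents backwards. Golgins are long coiled-coil proteins that catch such vesicles, and the COG complex helps them fuse with the right cisterna. In round spermatids the Golgi delivers the vesicles that make the acrosome, and it later leaves the sperm head with the residual cytoplasm.

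Library depth, worked back from the deposited values, was 17059486 to 19343479 reads, and 60 to 10761 reads fell on a member in a library. Tmc7 itself was at 39.1, 37.7 and 37.2 FPKM across the controls and at 43.8, 41.9 and 35.1 FPKM across the knockout-labelled libraries, so the transcript level does not check the labels, and every direction below rests on them. Sypl, the mouse gene for SYPL1 in the series title, was at 13.3 ± 0.751 and 11.95 ± 1.65 FPKM (SD, n = 3 each). Testis identity was clear from the markers. The summed level of 10 spermatocyte markers was 2628 to 3043 FPKM in controls and 2224 to 2922 FPKM across the knockout-labelled libraries, and that of 12 elongating spermatid markers 11390.5 to 19385.3 FPKM in controls and 8584 to 16465.4 FPKM across the knockout-labelled libraries. The summed level of 8 epididymal markers was at most 0.411 FPKM, and 3 of them were at 0 in all 6 libraries. Models of small and ribosomal RNAs took 0.0949% to 0.105% of the reads in controls and library 1 labelled knockout, but 0.335% and 0.281% in libraries 2 and 3 labelled knockout.

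The question of the series design was which transcripts differ between knockout and heterozygous testes. None of the 41 members passed the test (limma on log2(FPKM + 1) with Benjamini-Hochberg adjustment over 19168 genes, threshold 0.05): 0 were called higher and 0 lower, and the smallest adjusted p of a member was 0.868. The background was equally empty, with 0% of tested genes called higher and 0% called lower. At an unadjusted p under 0.05 there were 0 members, against 741 of all tested genes (3.87%). By limma-voom on recovered reads 0 members passed as well, while 1 gene of the whole table was called lower and 0 higher. The groups overlapped for every one of the 41 members, whereas all values labelled knockout lay above all control values in 4.15% of tested genes and below them in 4.41%.

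The intervals of the fit to all 6 libraries bound the differences among these samples only. Leaving out a library moved the estimates, to -0.40 for Arl1 without library 1 labelled knockout. Intervals of such fits are not given. The standard errors of the log2 differences lay between 0.08 and 0.15, and the 95% intervals of all 41 members stayed between -0.57 and 0.53, inside 1.5-fold on the log2(FPKM + 1) scale, which understates changes of low genes such as Copz2 and Sys1. The log2 difference was positive in 27 members and negative in 14, with a median of 0.03. Over all tested genes the median was -0.01 and 48.6% had a positive difference. Without library 2 labelled knockout the median of the members was 0.01 and 23 were positive. The plot of differences shows each member with its interval.

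**Figure D1:**
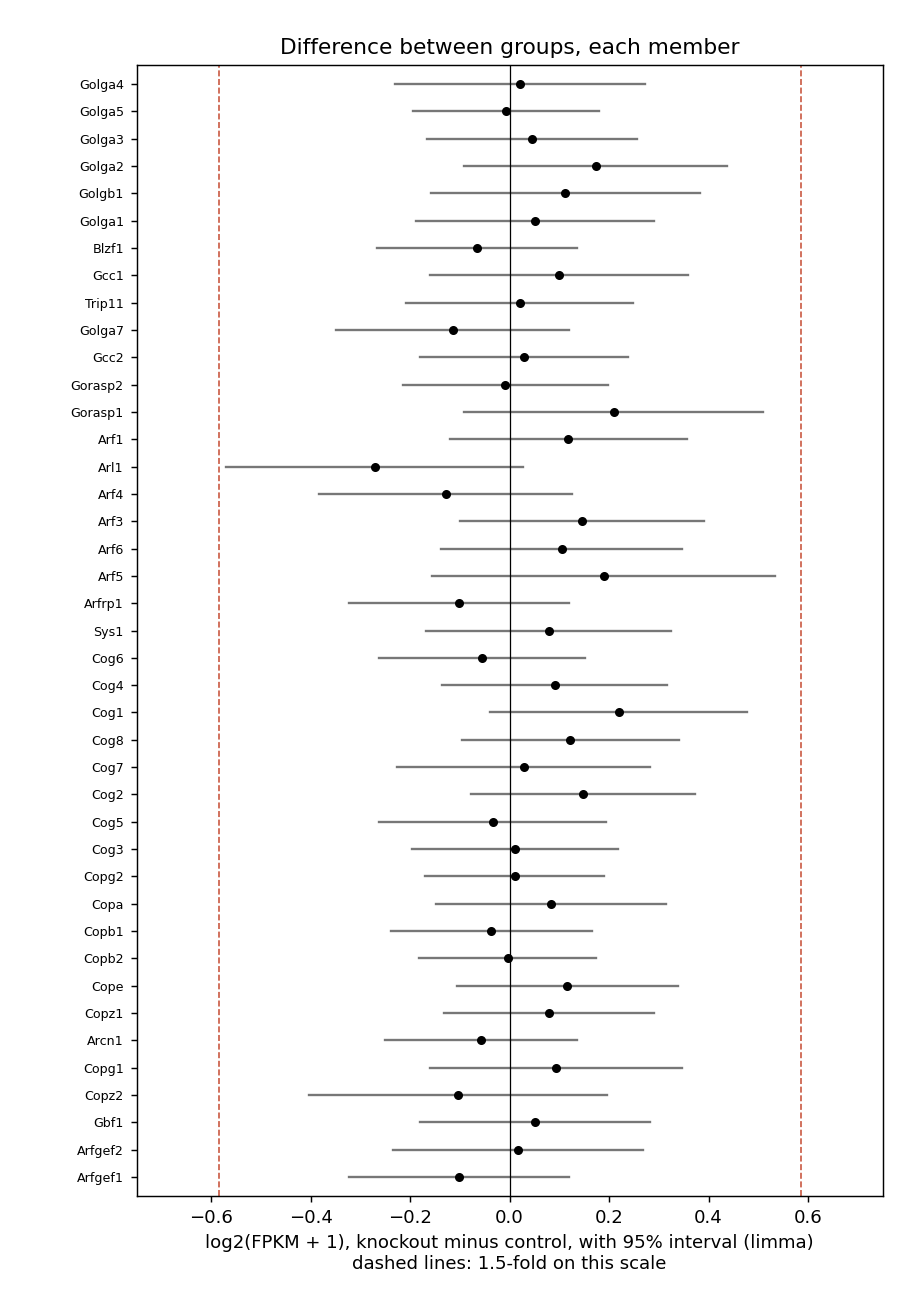
Difference in log2(FPKM + 1) between libraries labelled knockout and controls (x axis) for each of the 41 members (y axis), as limma estimates (points) with 95% intervals (lines). All intervals include 0 and lie between the dashed lines that mark 1.5-fold on this scale.

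Among golgins, the long tethers, levels ran from 5.12 FPKM for Gcc2 to 39.5 FPKM for Golga4 as means of 6 libraries. Golga4, golgin-245 of the trans-Golgi network, was at 37.9, 38.3 and 41.2 FPKM across the controls and at 36.3, 45.4 and 37.8 FPKM across the knockout-labelled libraries. Library 2 labelled knockout lay above all controls, and libraries 1 and 3 lay below them. Golga5, also called golgin-84, a membrane-anchored tether, was at 26.9, 24.99 and 24.97 FPKM across the controls and at 25.6, 26.1 and 24.7 FPKM across the knockout-labelled libraries. These 6 values lay within 1.09-fold of each other. Golga3, whose loss makes male mice infertile, was at 20.6, 21.8 and 22.04 FPKM across the controls and at 22.1, 24.03 and 20.5 FPKM across the knockout-labelled libraries. The controls fell inside the range of the other group, and the log2 difference was 0.04 (standard error 0.09, 95% interval from -0.17 to 0.26, limma adjusted p = 0.9201).

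Golga2 encodes GM130, the cis-Golgi golgin that binds the GRASP protein GRASP65. It was at 13.2, 14.4 and 15.03 FPKM across the controls and at 13.9, 17.4 and 17.3 FPKM across the knockout-labelled libraries. Knockout-labelled libraries 2 and 3 lay above all controls, with library 1 among them. The log2 difference was 0.17 (standard error 0.11, 95% interval from -0.09 to 0.44, limma adjusted p = 0.868). Golgb1, giantin of the cisternal rims, was at 9.66 ± 1.12 and 10.5 ± 1.002 FPKM in controls and in the knockout-labelled libraries (SD, n = 3 each). The golgins with a GRIP domain, which binds ARL1, had small differences: 0.05 for Golga1, 0.02 for Golga4, 0.10 for Gcc1 and 0.03 for Gcc2 on the log2 scale. Trip11, or GMAP-210, which holds the ciliary transport protein IFT20 at the Golgi, had a log2 difference of 0.02. For Blzf1, golgin-45, the partner of GRASP55, it was -0.07.

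Golga7 is a small palmitoyltransferase cofactor that bears the golgin name. It was at 7.03, 7.51 and 7.23 FPKM across the controls and at 6.84, 5.899 and 7.198 FPKM across the knockout-labelled libraries. Library 2 labelled knockout had the lowest value and library 3 lay among the controls. The log2 difference was -0.11 (standard error 0.10, 95% interval from -0.35 to 0.12, limma adjusted p = 0.868).

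The GRASP proteins link cisternae into ribbons and stacks. Gorasp2, GRASP55, was at 58.4, 53.5 and 51.9 FPKM across the controls and at 54.5, 51.9 and 56.2 FPKM across the knockout-labelled libraries. It ranked 3 of the 41 members. Gorasp1, GRASP65, was much lower, at 6.17, 6.34 and 5.59 FPKM across the controls and at 5.92, 8.26 and 7.36 FPKM across the knockout-labelled libraries. Its values in libraries 2 and 3 labelled knockout lay above the controls and that in library 1 lay among them. The log2 difference was 0.21 (standard error 0.13, 95% interval from -0.09 to 0.51, limma adjusted p = 0.868). Of the exon bases of Gorasp1, 32.1% overlap Wdr48 on the opposite strand. The strand setting of the counting is unknown here, so reads of Wdr48 may be part of this level.

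**Figure D2:**
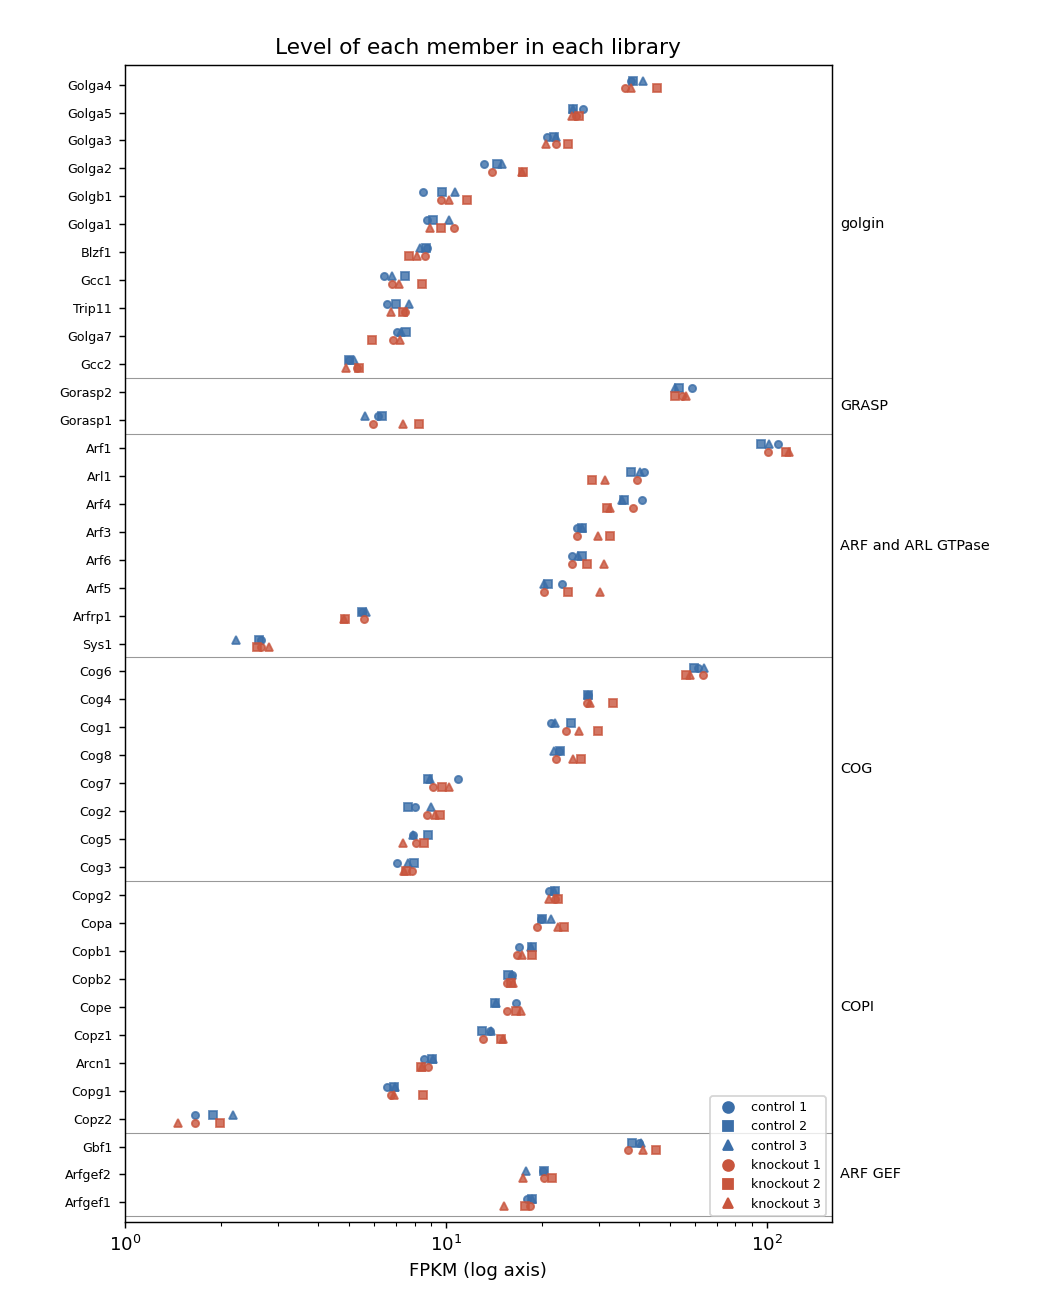
FPKM on a log axis (x axis) of the 41 members (y axis, grouped by role) in each of the 6 libraries, with controls in blue, libraries labelled knockout in red and marker shape giving the replicate number. Levels span Copz2 at a mean of 1.801 FPKM to Arf1 at 107 FPKM, and the groups overlap in every row.

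The ARF GTPases, which recruit coats and lipid-modifying enzymes when bound to GTP, held the highest level of the members. Arf1, the main Golgi ARF, was at 109, 96.3 and 102 FPKM across the controls and at 101, 114.6 and 117 FPKM across the knockout-labelled libraries. Libraries 2 and 3 labelled knockout were above the controls and library 1 was among them. The log2 difference was 0.12 (standard error 0.10, 95% interval from -0.12 to 0.36, limma adjusted p = 0.868). Arf1 shares 17.8% of its distinct 31-base words with transcripts of other genes, most of them with AC127331.2. Arf3, a close relative of Arf1, was at 25.7, 26.6 and 26.6 FPKM across the controls and at 25.6, 32.6 and 29.9 FPKM across the knockout-labelled libraries. Again libraries 2 and 3 labelled knockout were the highest, and library 1 was the lowest of the 6, with a log2 difference of 0.14. Arf6, the ARF of the plasma membrane and endosomes, had a log2 difference of 0.10.

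Of the class II ARFs, which act between the endoplasmic reticulum and the Golgi, Arf4 was at 41.00, 36.01 and 35.4 FPKM across the controls and at 38.4, 31.9 and 32.4 FPKM across the knockout-labelled libraries. The lowest values were those of libraries 2 and 3 labelled knockout. Arf5 was at 23.05, 20.8 and 20.3 FPKM across the controls and at 20.3, 23.98 and 30.2 FPKM across the knockout-labelled libraries. Here library 3 labelled knockout was the highest and library 1 the lowest of the 6. The log2 differences of Arf4 and Arf5 were -0.13 and 0.19, with limma adjusted p of 0.868 for both. The transcript of Arf5 overlaps Gcc1 on the opposite strand over 16.4% of its exon bases, and Arf4 overlaps Pde12 over 14.6%.

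ARL1 brings GRIP-domain golgins to the trans-Golgi, and ARFRP1 with its membrane receptor SYS1 acts upstream of it. Arl1 (chromosome 10 from 88730858 to 88744094 on the plus strand, GRCm38) had the smallest unadjusted p of the members, 0.0685. It was at 41.4, 37.8 and 40.4 FPKM across the controls and at 39.3, 28.6 and 31.4 FPKM across the knockout-labelled libraries. Libraries 2 and 3 labelled knockout lay below all controls, but library 1 lay among them, so the groups overlapped. The log2 difference was -0.27 (standard error 0.13, 95% interval from -0.57 to 0.03, limma adjusted p = 0.868). Without library 1 labelled knockout it was -0.40 with a limma adjusted p of 0.153, and without library 2 labelled knockout it was -0.18 with a limma adjusted p of 0.99993. Arl1 shares 19.3% of its words with other genes, 14.9% with Gm18541.

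Arfrp1 had a lower level and was at 5.49, 5.49 and 5.63 FPKM across the controls and at 5.58, 4.87 and 4.83 FPKM across the knockout-labelled libraries. Below the controls were again libraries 2 and 3 labelled knockout, with library 1 among them. Its log2 difference was -0.10 (standard error 0.09, 95% interval from -0.32 to 0.12, limma adjusted p = 0.868). Sys1 was at 2.499 ± 0.238 and 2.69 ± 0.123 FPKM (SD, n = 3 each, controls and labelled knockout), with a log2 difference of 0.08.

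The exchange factors load ARFs with GTP. Gbf1, which acts at the cis-Golgi in the recruitment of COPI, was at 40.2, 38.2 and 40.7 FPKM across the controls and at 37.1, 45.3 and 41.4 FPKM across the knockout-labelled libraries. The highest and the lowest value both came from libraries labelled knockout. Arfgef1 (BIG1) of the trans-Golgi was at 17.9, 18.6 and 18.5 FPKM across the controls and at 18.3, 17.7 and 15.2 FPKM across the knockout-labelled libraries. Library 3 labelled knockout was the lowest. Arfgef2 (BIG2) was at 20.1, 20.3 and 17.8 FPKM across the controls and at 20.2, 21.4 and 17.4 FPKM across the knockout-labelled libraries. Log2 differences of the 3 exchange factors lay between -0.10 and 0.05.

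The COG complex has 8 subunits in 2 lobes. Cog6 (chromosome 3 from 52981875 to 53017237 on the minus strand) stood far above the others and was at 60.97, 59.5 and 64.01 FPKM across the controls and at 63.3, 56.2 and 57.9 FPKM across the knockout-labelled libraries. Its mean of 60.3 FPKM compared with 28.7 FPKM for Cog4 and 7.59 FPKM for Cog3, the next and the lowest of the complex, and no Cog6 value overlapped any value of another subunit. No annotated gene overlaps its exons, and 4.72% of its 31-base words occur in transcripts of other genes. Cog6 also led the complex when reads were divided by the length of the principal transcript, at 93.98 per kilobase against 42.5 for Cog4.

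Cog4 was at 27.7, 27.8 and 27.7 FPKM across the controls and at 27.6, 33.3 and 28.2 FPKM across the knockout-labelled libraries. The controls were nearly identical and library 2 labelled knockout was the highest. Cog1 was at 21.3, 24.6 and 21.9 FPKM across the controls and at 23.8, 29.8 and 26.1 FPKM across the knockout-labelled libraries. Above the controls lay libraries 2 and 3 labelled knockout, and library 1 lay among them. The log2 difference of Cog1, the largest positive one of the members, was 0.22 (standard error 0.11, 95% interval from -0.04 to 0.48, limma adjusted p = 0.868). Without library 2 labelled knockout it was 0.14. Cog1 overlaps Fam104a on the opposite strand over 22.4% of its exon bases. Cog2 was at 8.02, 7.61 and 9.02 FPKM across the controls and at 8.74, 9.59 and 9.24 FPKM across the knockout-labelled libraries. Its control library 3 lay inside the range of the other group, and the log2 difference was 0.15. The other COG subunits had log2 differences between -0.06 (Cog6) and 0.12 (Cog8).

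COPI is a coat of 7 subunits, of which the gamma and zeta subunits each have a pair of genes. Copb2, the beta-prime subunit, had 6 values within 1.04-fold, the narrowest range of the 41 members, at 15.9 ± 0.271 and 15.9 ± 0.333 FPKM (SD, n = 3 each, controls and labelled knockout). Copa, the alpha subunit, was at 19.8, 19.9 and 21.3 FPKM across the controls and at 19.2, 23.4 and 22.3 FPKM across the knockout-labelled libraries. Library 2 labelled knockout was the highest and library 1 the lowest. Copb1, the beta subunit, was at 16.97, 18.6 and 18.4 FPKM across the controls and at 16.7, 18.6 and 17.3 FPKM across the knockout-labelled libraries. Library 1 labelled knockout was the lowest of the 6, and libraries 2 and 3 lay inside the control range. Cope, Copz1 and Arcn1, the epsilon, zeta and delta subunits, had log2 differences of 0.12, 0.08 and -0.06.

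Copg2, the gamma-2 subunit (chromosome 6 from 30747554 to 30896794 on the minus strand), was at 21.05, 22.00 and 21.7 FPKM across the controls and at 21.9, 22.4 and 21.1 FPKM across the knockout-labelled libraries. Copg1, gamma-1, was at 6.58, 6.91 and 6.97 FPKM across the controls and at 6.75, 8.48 and 6.89 FPKM across the knockout-labelled libraries. The ratio of Copg2 to Copg1 within a library was 3.198, 3.18 and 3.12 in controls and 3.24, 2.63 and 3.06 across the knockout-labelled libraries. Copg2 overlaps Mest on the opposite strand over 17.8% of its exon bases. Of the zeta pair, Copz1 was at 13.7, 13.02 and 13.8 FPKM across the controls and at 13.1, 14.9 and 15.1 FPKM across the knockout-labelled libraries. Copz2 was at 1.65, 1.88 and 2.17 FPKM across the controls and at 1.65, 1.98 and 1.46 FPKM across the knockout-labelled libraries and rested on as few as 60 reads in a library.

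These ratios were compared between groups for 6 paralogue pairs by exact two-sided permutation tests, which with 3 libraries against 3 cannot go below p = 0.1. The ratio of Arf5 to Arf4 was 0.562, 0.578 and 0.573 in controls and 0.528, 0.751 and 0.932 across the knockout-labelled libraries. The controls were tight, while libraries 2 and 3 labelled knockout had higher ratios and library 1 a lower one. The difference of the mean log2 ratio was 0.33 (exact permutation p = 0.4, adjusted over 6 pairs 0.48). It was 0.55 without library 1 and 0.14 without library 3 labelled knockout. Gorasp2 over Gorasp1 was 9.46, 8.43 and 9.29 in controls and 9.205, 6.29 and 7.64 across the knockout-labelled libraries. Its difference was -0.25 (exact permutation p = 0.2, adjusted 0.48), or -0.38 without library 1 and -0.11 without library 2 labelled knockout. The differences were -0.09 for Copg2 over Copg1, -0.25 for Copz2 over Copz1, 0.03 for Arf3 over Arf1 and 0.12 for Arfgef2 over Arfgef1, with exact permutation p from 0.2 to 0.9 and adjusted values from 0.48 to 0.9.

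**Figure D3:**
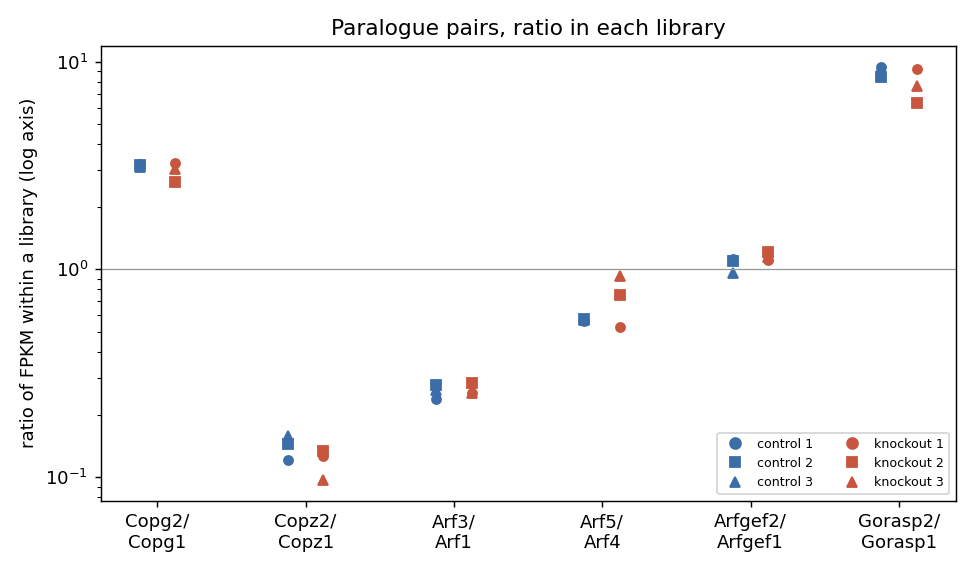
Ratio of FPKM within each library on a log axis (y axis) for 6 paralogue pairs (x axis), controls in blue and libraries labelled knockout in red. Copg2 exceeds Copg1 about equally in 5 libraries and less in library 2 labelled knockout, and Arf5 over Arf4 runs from 0.562 to 0.578 in controls and from 0.528 to 0.932 in libraries labelled knockout.

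The order of levels within COPI depended on the length used. FPKM divides by the whole exon span of a gene model, and for 40 of the 41 members the deposited length equalled the union of GENCODE M21 exons. This length was 1 to 3.66 times that of the principal (APPRIS) transcript, with a median of 1.56. Arcn1 was the extreme: its model spans 14915 bases and its principal transcript 4072 bases. Its mean was 8.72 FPKM, but 31.9 per kilobase of principal transcript, which moved it from rank 28 to rank 14 of the 41. On that scale Copa, Cope, Copb2, Arcn1, Copz1, Copb1 and Copg2 lay between 28.02 and 42.8, a range of levels closer together than their 8.72 to 21.7 FPKM. Copg1 went from 7.096 FPKM to 18.9 per kilobase, so the excess of Copg2 over Copg1 shrank, and Copz2 stayed the lowest member at 4.28. The rescaled values count all reads of the gene against 1 transcript, so reads from other isoforms can make them too high.

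**Figure D4:**
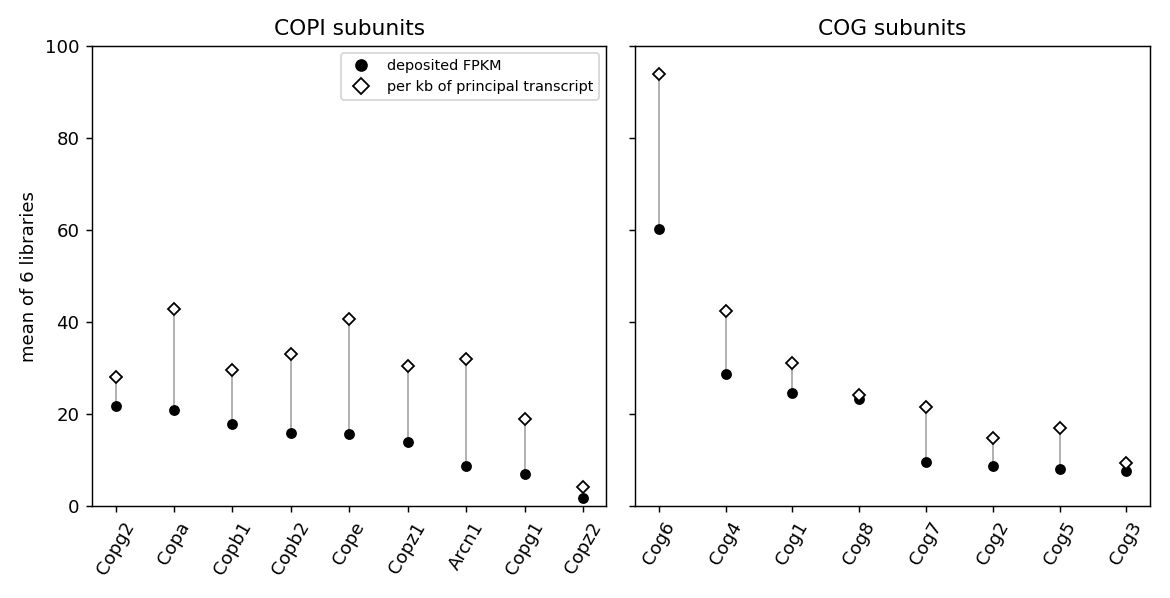
Mean level over 6 libraries (y axis) of COPI and COG subunits (x axis), as deposited FPKM (filled circles) and as reads per kilobase of the principal transcript on the same library scale (open diamonds). Arcn1 moves from 8.72 to 31.9, and Cog6 leads the COG subunits on both scales.

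The median member level, centred on the 6 libraries on the log2(FPKM + 1) scale, was -0.03, -0.02 and -0.01 in controls and -0.02, 0.07 and -0.02 across the knockout-labelled libraries. The elongating spermatid marker level was 0.46, 0.29 and -0.12 in controls and 0.32, -0.34 and -0.62 across the knockout-labelled libraries. The Sertoli marker level was -0.17, -0.16 and -0.02 in controls and -0.12, 0.18 and 0.29 across the knockout-labelled libraries. Libraries 2 and 3 labelled knockout thus had the lowest spermatid and the highest Sertoli levels, and library 1 labelled knockout resembled the controls in both. Other marker lists differed between libraries as well. The Leydig marker level was -0.11, 0.11 and 0.19 in controls and 0.14, 0.16 and -0.50 across the knockout-labelled libraries. The blood marker level ran from -0.965 in control 2 to 1.25 in library 3 labelled knockout. In bulk tissue, fewer cells of a type and less RNA per cell cannot be told apart, and the part of these shifts in the member values was not tested.

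The same 3 libraries differed in where the members fell. In library 1 labelled knockout, 28 of 41 members (68.3%) lay inside the control range, against 57.4% of all tested genes. In library 2, 21 members (51.2%) lay above the controls and 8 (19.5%) below them, against 31.5% and 32.6% of all tested genes. In library 3, 16 members (39.02%) lay above and 14 (34.1%) below, against 30.97% and 33.5%. Library 2 labelled knockout held the highest value of 17 members, a count that was not made over all tested genes. By class, the COG level was -0.05, -0.03 and -0.04 in controls and -0.02, 0.10 and 0.03 across the knockout-labelled libraries. The golgin level was -0.08, -0.03 and 0.02 in controls and 0.002, 0.05 and -0.05 across the knockout-labelled libraries. For COPI it was -0.04, -0.02 and 0.02 in controls and -0.06, 0.07 and -0.03 across the knockout-labelled libraries. The level of the exchange factors was 0.02, 0.05 and 0.01 in controls and 0.05, 0.13 and -0.15 across the knockout-labelled libraries. The ARF and ARL level was 0.03, 0.003 and -0.05 in controls and -0.02, 0.02 and 0.10 across the knockout-labelled libraries. For the 2 GRASP genes it was 0.01, -0.03 and -0.13 in controls and -0.06, 0.12 and 0.10 across the knockout-labelled libraries.

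**Figure D5:**
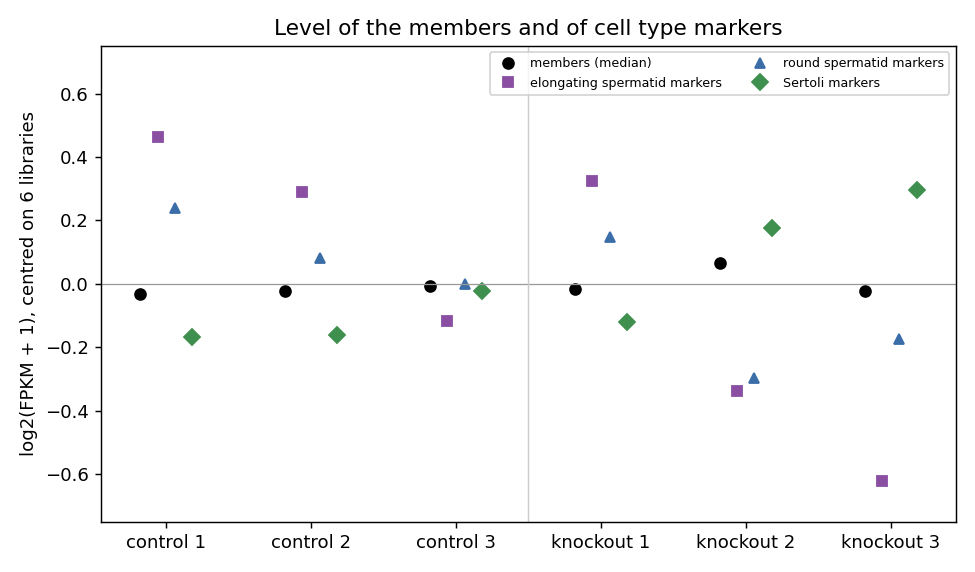
Centred log2(FPKM + 1) level (y axis) in each library (x axis) for the members (median of 41 genes) and for elongating spermatid, round spermatid and Sertoli markers (means of 12, 10 and 10 genes). The median of the members lies between -0.03 and 0.07, with single members going in opposite directions, and the elongating spermatid level runs from 0.46 down to -0.62.

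The range over the 6 libraries was also set beside that of other genes, with no test. Genes were matched on FPKM and not on reads. At equal FPKM a longer gene model holds more reads and so less sampling noise, which was not adjusted for. Among genes with a mean of 10 to 50 FPKM, the highest of the 6 values was a median of 1.22 times the lowest in 22 members and 1.32 times in 4055 tested genes. In 6 of these 22 members (27.3%) and in 852 of the 4055 genes (21.01%), all 6 values lay within 1.2-fold of each other.

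The neighbouring steps of the early secretory pathway were read from 4 lists. Of 86 genes, 82 were tested, 0 were called higher and 0 lower by limma, and the median log2 difference was 0.04. By limma-voom 0 were called too. At an unadjusted p under 0.05 there were 2 of the 82, Arfgap2 and Trappc6b, beside 3.87% of all tested genes. The COPII coat, which carries cargo out of the endoplasmic reticulum, had 16 of 17 genes tested, 10 positive and a median of 0.03. ARF GAPs, which switch ARFs off, with other ARF GEFs and effectors, had 24 of 26 tested, 13 positive and a median of 0.06. Other tethers had 24 of 25 tested, 15 positive and a median of 0.04. KDEL receptors, p24 proteins and other cargo receptors had 18 of 18 tested, 10 positive and a median of 0.03.

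Arfgap2, a GTPase-activating protein of COPI vesicles, was at 13.2, 13.9 and 13.97 FPKM across the controls and at 15.5, 17.9 and 16.1 FPKM across the knockout-labelled libraries, with no overlap of the groups. Its log2 difference was 0.25 (standard error 0.09, 95% interval from 0.04 to 0.45, limma adjusted p = 0.868). Trappc6b, a subunit of the TRAPP tether, was at 14.1, 12.7 and 13.8 FPKM across the controls and at 10.1, 8.61 and 11.2 FPKM across the knockout-labelled libraries, also with no overlap. Its log2 difference was -0.41 (standard error 0.11, 95% interval from -0.67 to -0.15, limma adjusted p = 0.868). Kdelr1, which returns escaped residents to the endoplasmic reticulum in COPI vesicles, was at 12.3, 13.9 and 13.1 FPKM across the controls and at 14.1, 15.7 and 15.7 FPKM across the knockout-labelled libraries. Gorab, a COPI-associated trans-Golgi protein, was at 2.300, 2.29 and 2.21 FPKM across the controls and at 2.83, 3.35 and 2.52 FPKM across the knockout-labelled libraries. In both, all values labelled knockout lay above the controls, with log2 differences of 0.20 and 0.25 and a limma adjusted p of 0.868.

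The other genes with the smallest p of each list are given by their log2 differences, and each had a limma adjusted p of 0.868. In the COPII list these were 0.25 for Sec31b, 0.09 for Sec13, -0.12 for Sar1a and -0.11 for Tfg. Among ARF regulators they were 0.17 for Arfgap1, -0.34 for Arl4a and -0.23 for Psd3. Among tethers they were 0.23 for Trappc1 and -0.18 for Tmf1. Among cargo receptors they were 0.18 for Kdelr2, -0.26 for Tmed5 and -0.13 for Tmed7. The groups did not overlap in 4 of the 82 tested genes in the higher direction and in 4 in the lower, beside the 4.15% and 4.41% of all tested genes. Of the genes named, Arfgap2, Kdelr1, Gorab and Sec13 were among the higher, and Trappc6b, Sar1a and Tmed7 among the lower.

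Promoter letters were read as a further feature of the members. RefSeq promoters of GRCm38.p6, from 250 bases before to 50 after the start site, were matched by symbol for 35 of the 41 members. One promoter was searched for each gene, the first listed, and the shares are of genes. The motif TGACGTGG, known as an unfolded protein response element, was found on either strand in 4 of 35 members (11.4%), in 164 of 27025 genes (0.607%) and in 94 of 12043 tested genes (0.7805%). The motif ACGTGGC, the Golgi stress response element, was found in 6 of 35 members (17.1%), in 707 of 27025 genes (2.62%) and in 435 of 12043 tested genes (3.61%). The cAMP response element TGACGTCA was found in 1 of 35 members (2.86%), in 507 of 27025 genes (1.88%) and in 372 of 12043 tested genes (3.09%). TGACGTGG and ACGTGGC can overlap by their shared letters, as they do in Arf1. The counts are small and a match is not shown to be a bound site. All 3 motifs contain CG, and the genes compared were not matched for the base composition of their promoters. The 3 motifs were chosen after the expression values were seen, and no test was made of these shares. The matches given here, picked by these shares, are all 4 of TGACGTGG and, of the 6 of ACGTGGC, the 2 outside annotated exons. Capitals mark the motif or its reverse complement, and each line is written 5′ to 3′ on the strand of the gene.
Arf1 (GRCm38.p6, chr11:59228228-59228257, minus strand): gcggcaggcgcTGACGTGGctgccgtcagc
Copb1 (GRCm38.p6, chr7:114254690-114254719, minus strand): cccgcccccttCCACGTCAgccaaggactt
Copb2 (GRCm38.p6, chr9:98563713-98563742, plus strand): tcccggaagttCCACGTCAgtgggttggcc
Gbf1 (GRCm38.p6, chr19:46152535-46152564, plus strand): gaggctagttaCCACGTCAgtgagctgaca
Arf5 (GRCm38.p6, chr6:28423522-28423550, plus strand): ggaggggcgggGCCACGTgacgtcgggcg
Cog3 (GRCm38.p6, chr14:75754598-75754626, minus strand): ctccgtcgaaaGCCACGTctgttttggcc
Arf1 and Gbf1, the GTPase and its exchange factor, and Copb1 and Copb2 of the coat hold TGACGTGG near the RefSeq start site. It begins at base 22 after that site in Arf1 and 12, 28 and 7 bases before it in Gbf1, Copb1 and Copb2. By the GENCODE M21 gene coordinates, all 4 matches lie inside the gene. These 4 windows overlap annotated GENCODE M21 exons, and those of Arf5 and Cog3 do not. The log2 differences were 0.12 for Arf1, 0.05 for Gbf1, -0.04 for Copb1 and -0.0039 for Copb2, and none passed the test.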

How the data were processed

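RNA of 3 control and 3 knockout-labelled testis samples was sequenced. The authors deposited FPKM per gene for all 6 samples. GRCm38 (mm10) is named in the submitters' processing notes. The sources used here give no aligner, counter, annotation release, strand or filter. All 41 members had the coordinates of GENCODE M21. Reads were recovered from FPKM times gene length: divided by a constant for each library, 100% of values above 0 were whole within 0.001 reads.

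The test ran on log2(FPKM + 1), a pseudocount of 1, for mean values of 0.5 FPKM or more, using lmFit and eBayes with trend from limma 3.58.1 (R 4.3.3), with group as the single term, and Benjamini-Hochberg adjustment over all tested genes. On data simulated with the same relative spread between replicates for every gene, limma with this filter made more false calls than its threshold implies in every run. In the run with the largest false share most of these were gene models with a mean under 10 reads. A filter of 10 reads was therefore added as an alternative after the data were seen. That filter lowered the false share in 1 of 3 runs and left it above the threshold in all 3, while limma-voom stayed nearer to it. The test called no gene in the real data, and each member had at least 60 reads.

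Members, lists and tests were chosen with earlier results of these data known. Values in every library are given for the 3 members of highest FPKM in each class, the 5 of smallest p in each direction and 6 paralogue pairs. Related lists are named by the 2 smallest p in each direction. Of these genes, Arfgap2, Trappc6b, Kdelr1 and Gorab were given values in every library after values were seen. Golgb1, Copb2 and Sys1 were given group means, and the overlapping genes were named, after values were seen. Alternatives covered pseudocounts, filters, normalization, weights, trend, the replicate block, limma-voom and each library left out.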

Additional observations from a re-analysis of the deposited data

How the results depend on the processing

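No member and no gene of the 4 related lists passed under any alternative run. By limma-voom 1 gene of the whole table was called lower, no member. The median log2 difference of the members ran from 0.00781 to 0.0571 over the settings. Members below had differences near 0 that changed sign without being called, and the cause was not tested. With quantile normalization Golga5, Gorasp2 and Copb2 were at 0.0067, 0.0466 and 0.0101, and with array weights Golga5, Gorasp2, Cog3 and Copb2 at 0.00825, 0.00039, -0.0234 and 0.0102. With 1 library left out, log2 differences ran as follows: Golga1 from -0.00698 to 0.11, Golga3 from -0.0104 to 0.0991, Golga4 from -0.0745 to 0.0827, Golga5 from -0.0251 to 0.0267, Trip11 from -0.0284 to 0.0752, Gorasp2 from -0.0434 to 0.0402, Cog3 from -0.0317 to 0.0462, Cog5 from -0.0805 to 0.0189, Cog7 from -0.0219 to 0.12, Copb2 from -0.0173 to 0.0114, Copg2 from -0.00876 to 0.0325, Gbf1 from -0.0177 to 0.12 and Arfgef2 from -0.0439 to 0.0984. The log2 ratio difference of Arf3 over Arf1 ran from -0.0322 to 0.0806. Leaving out 1 library also moved these by over 1.5 times with no change of sign: Copg2 over Copg1 from -0.16 to -0.00928, Copz2 over Copz1 from -0.36 to -0.11, Arf5 over Arf4 from 0.14 to 0.55, Arfgef2 over Arfgef1 from 0.0557 to 0.17, Gorasp2 over Gorasp1 from -0.38 to -0.11, Golga2 from 0.12 to 0.27, Golga7 from -0.17 to -0.0423, Golgb1 from 0.0309 to 0.18, Gcc1 from 0.0173 to 0.16, Gcc2 from 0.00916 to 0.0645, Blzf1 from -0.10 to -0.0305, Gorasp1 from 0.11 to 0.32, Arl1 from -0.40 to -0.18, Arfrp1 from -0.16 to -0.0717, Sys1 from 0.0208 to 0.11, Arf1 from 0.0764 to 0.18, Arf3 from 0.0689 to 0.24, Arf4 from -0.21 to -0.0635, Arf5 from 0.044 to 0.32, Arf6 from 0.0244 to 0.18, Cog1 from 0.14 to 0.29, Cog4 from 0.00781 to 0.14, Cog6 from -0.11 to -0.0206, Cog8 from 0.0672 to 0.19, Copa from 0.0281 to 0.16, Copb1 from -0.077 to -0.00438, Copg1 from 5.54e-05 to 0.15, Cope from 0.0794 to 0.18, Copz1 from 0.044 to 0.14, Copz2 from -0.18 to -0.0388 and Arfgef1 from -0.15 to -0.0265. Without library 1 labelled knockout, 7 members had an unadjusted p under 0.05, of 3493 genes among 19211. Deviations of same-numbered libraries correlated at 0.29, 0.04 and 0.20 over genes, and those of differently numbered libraries at -0.32 to 0.17. Each control correlated best with the knockout-labelled library of its own number, while library 2 labelled knockout correlated best with control 3. These values do not settle if the numbers pair the samples, and the main test did not pair them. With the replicate number as a block 0 genes were called higher and 0 lower, 2 members had an unadjusted p under 0.05, of 1411 genes among 19168, and the smallest unadjusted p among members was that of Arl1 (log2 difference -0.27, limma adjusted p = 0.662). The edgeR test listed among the alternatives was not run, and the recovered reads were tested with limma-voom alone. The libraries are few, so small differences may have been missed. The intervals given are not adjusted for the number of genes tested and do not mark the smallest difference that the test could detect.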
